A study of Homo sapiens with 4 samples.

Results

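The regions described here are accessible sites of human pancreatic progenitors that lay far from gene starts, were called in every library, and stood higher in the ranking of peaks after treatment with I-BET151. Peaks of 4 libraries were merged into 164301 regions. All 4 lists held 25627 of them, and 16287 of these lay more than 3 kb from every protein-coding gene start. Each region called in all 4 lists was ranked in each library by its highest fold enrichment and given a percentile from 0 (lowest) to 100. A distal region was counted as rising where its lowest percentile under I-BET151 exceeded its highest percentile under DMSO by at least 10 points. By this rule 2614 distal regions rose, 2147 fell by the mirrored rule, and 11526 did neither. The rising regions were selected on measured fold enrichment in these same libraries, so their ranks and fold enrichments are given as a description, without a test.

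Enhancers are stretches of DNA that lie away from the genes they act on, and their activity goes with open chromatin that the Tn5 transposase can cut. BET proteins bind acetylated histones at promoters and enhancers through their bromodomains and recruit the transcription elongation machinery, and I-BET151 is a small molecule that occupies these bromodomains. In pancreatic progenitors many enhancers are bound by FOXA, GATA, HNF and SOX factors together with PDX1. Other distal accessible sites are bound by CTCF, a zinc finger protein that, with cohesin, anchors chromatin loops and separates neighbouring domains.

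The cells were pancreatic progenitors differentiated from MEL1, an established human embryonic stem cell line that the study's methods give as MEL1 INS GFP/W, with GFP placed in the insulin gene INS. All groups therefore share a single genetic background. Every culture was kept in the same basal medium, named EF6, which holds DMEM, B27, EGF, bFGF and an inhibitor of TGF-β receptor signaling, and received either DMSO, the solvent control, or 1 μM I-BET151 for 7 days. There were 2 ATAC-seq libraries per treatment, each from 50000 cells. Nothing in the labels says whether the replicates came from separate cultures, so the spread between them may be technical. The lists held 82568 and 38295 peaks for DMSO and 84995 and 111324 for I-BET151. The depth implied by the genome-wide background was 38.7 and 36.6 M reads for DMSO and 12.5 and 16.0 M for I-BET151, so depth moved with treatment and its part in the results was not tested. A peak lay within 1 kb of the start of 7 and 6 of 10 pancreatic progenitor marker genes in the DMSO libraries and of 9 and 9 in the I-BET151 libraries. The same count was 1 or 2 of 5 for pluripotency genes, 0 to 2 of 5 for endocrine genes, 1 or 2 of 4 for liver genes and 1 or 2 of 4 for mesenchymal genes in each library. In bulk libraries a change in the share of cells with an open site and a change of openness per cell cannot be told apart.

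The reference sequences below (hg38, plus strand) show what several of these sites carry. Each sequence holds 50 bases on each side of the centre of a motif match, with each match to that motif in capitals. The first 4 are the rising regions with the largest margins among those with a match to the CTCF consensus, the motif with the highest ratio of its share in rising to that in other distal regions. They lie in an intron of ITPR1 (chr3:4656115-4656215), between genes nearest to SERPINB12 (chr18:63518574-63518674), between genes nearest to PAXIP1 (chr7:154913845-154913945) and in an intron of PRKAG2 (chr7:151783052-151783152).
ITPR1, CTCF: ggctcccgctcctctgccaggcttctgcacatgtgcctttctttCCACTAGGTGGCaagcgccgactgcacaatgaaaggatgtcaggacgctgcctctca
SERPINB12, CTCF: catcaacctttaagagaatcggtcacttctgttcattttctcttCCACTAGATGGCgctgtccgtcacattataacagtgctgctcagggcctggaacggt
PAXIP1, CTCF: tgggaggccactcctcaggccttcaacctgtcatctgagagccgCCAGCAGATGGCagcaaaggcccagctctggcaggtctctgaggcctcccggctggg
PRKAG2, CTCF: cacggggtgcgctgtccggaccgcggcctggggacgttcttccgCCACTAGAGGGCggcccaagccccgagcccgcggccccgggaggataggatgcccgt

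The next 5 windows show, for other factors, the rising region of largest margin outside exons that carries the motif. The letters searched on both strands were TGTTTAC for FOXA, TATNGAT for HNF6, CATNAATCA for PDX1, AGATAA for GATA and CAGCTG for the E-box, and these were present in 6.14%, 6.62%, 2.17%, 16.4% and 14.6% of all shared distal regions. The windows lie in an intron of ANKRD6 nearest to LYRM2 (chr6:89567959-89568059), in an intron of GABBR2 nearest to TBC1D2 (chr9:98315748-98315848), between genes nearest to PRDM9 (chr5:23419346-23419446), in an intron of FRMPD3 nearest to PRPS1 (chrX:107542710-107542810) and between genes nearest to SUDS3 (chr12:118611359-118611459). The PDX1 match near PRDM9 is on the minus strand.
LYRM2, FOXA: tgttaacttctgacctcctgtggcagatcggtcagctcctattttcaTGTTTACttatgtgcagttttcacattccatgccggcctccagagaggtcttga
TBC1D2, HNF6: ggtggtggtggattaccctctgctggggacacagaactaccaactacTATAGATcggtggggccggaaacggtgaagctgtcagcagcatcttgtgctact
PRDM9, PDX1: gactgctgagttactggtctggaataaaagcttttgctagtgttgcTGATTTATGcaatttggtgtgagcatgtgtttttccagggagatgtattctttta
PRPS1, GATA: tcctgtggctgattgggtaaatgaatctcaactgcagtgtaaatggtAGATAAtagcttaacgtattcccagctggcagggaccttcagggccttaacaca
SUDS3, E-box: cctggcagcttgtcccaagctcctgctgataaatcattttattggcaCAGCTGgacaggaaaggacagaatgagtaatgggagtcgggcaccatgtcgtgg

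The last window was chosen after its values were seen, because SOX9 was the progenitor factor with the most rising regions around it. It lies inside a long noncoding RNA gene 300207 bp from the SOX9 start (chr17:72421400-72421500) and holds 2 matches to the AP-1 letters TGANTCA, which 15.4% of all shared distal regions carried within 100 bp of the summit.
SOX9, AP-1: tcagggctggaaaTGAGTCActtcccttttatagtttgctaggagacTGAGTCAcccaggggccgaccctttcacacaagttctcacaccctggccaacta

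The rising regions moved from the weaker part of the shared regions under DMSO to their stronger part under I-BET151. Their median percentiles by fold enrichment were 25.5 and 27.3 in the DMSO libraries and 66.9 and 65.8 in the I-BET151 libraries. Over all shared distal regions the medians were 46.4, 43.3, 42.3 and 48.2 in the same order. The median margin between the lowest I-BET151 and the highest DMSO percentile was 20.5 points, and the largest was 71.6 points. The margin reached 30 points in 661 regions, 50 points in 87 and 70 points in 2. In 936 rising regions (35.8%) both DMSO percentiles lay under 50 and both I-BET151 percentiles at or above it. This held for 6.38% of all shared distal regions. Both I-BET151 percentiles were at least 90 in 216 rising regions (8.26%), compared with 4.17% of all shared distal regions. Both DMSO percentiles were under 10 in 349 (13.35%), compared with 5.45%. The rule shapes these shares. By design, both I-BET151 values lay above both DMSO values in every member, which also held for 28.6% of all shared distal regions, and the rule itself took in 16.0% of them.

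**Figure D1:**
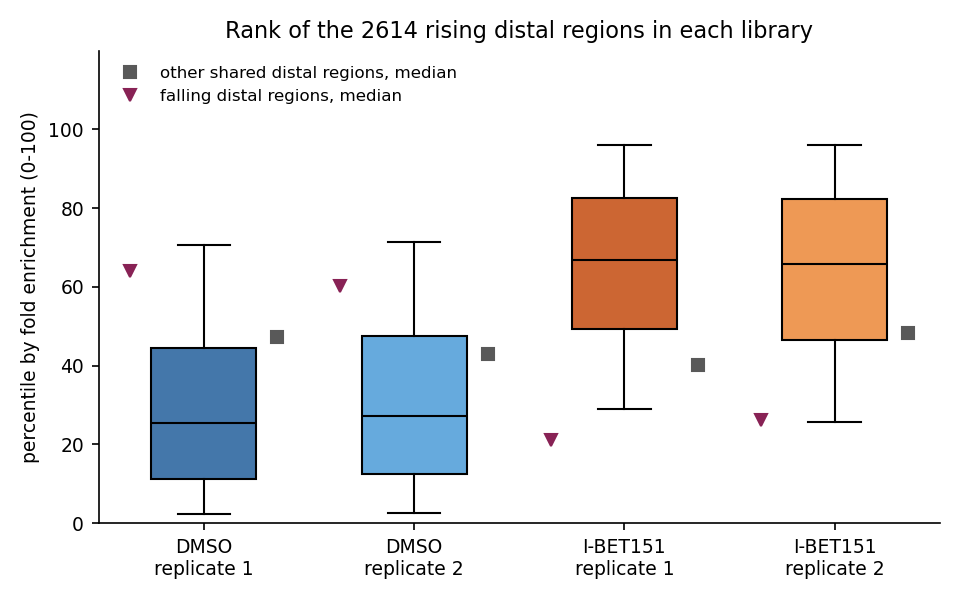
Percentile by fold enrichment (0 to 100) of the 2614 rising distal regions in each of the 4 libraries. Boxes show the median and quartiles and whiskers the 5 and 95 percentiles, while squares and triangles give the medians of the other and the falling shared distal regions. The boxes of the rising regions sit around medians of 25.5 and 27.3 under DMSO and 66.9 and 65.8 under I-BET151.

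The peak caller's fold enrichment is the number of reads stacked at the summit plus 1, divided by the local background plus 1, and both parts moved. The added read weighs more where the background is low, as in the shallower I-BET151 libraries. The median fold enrichment of the rising regions was 4.17 and 3.85 in the DMSO libraries and 9.92 and 11.5 in the I-BET151 libraries. The median pileup at the summit was 23 and 22 reads under DMSO and 28 and 52 reads under I-BET151, although the I-BET151 libraries were shallower. Scaled by the depth of each library, the pileup increased by a median log2 of 1.89 between the replicate 1 libraries and of 2.41 between the replicate 2 libraries. Since all shared distal regions increased by a median of 1.38 and 2.19, the rising regions stood above the common shift by more in replicate 1 than in replicate 2.

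The local background also differed in these regions. Relative to the genome-wide background of each library, it was 1.63 and 1.54 in the DMSO libraries, against 1.43 and 1.37 over all shared distal regions. In the I-BET151 libraries it was 2.04 and 2.28, against 1.97 and 2.46. The background therefore moved with the ranking, and its part in the result was not tested. Ranked by pileup alone, the median percentiles of the rising regions were 29.4 and 33.7 under DMSO and 52.6 and 46.1 under I-BET151, and 1603 regions (61.3%) still had both I-BET151 values above both DMSO values, compared with 26.5% of all shared distal regions. Ranked by −log10 p, the medians were 25.5, 28.5, 58.7 and 53.8, and 2234 regions (85.5%) kept the separation, compared with 24.7% of all shared distal regions. These measures share their reads with the fold enrichment that chose the members.

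A moderated linear model (limma, Benjamini-Hochberg adjustment) was fitted to the normal scores of the ranks of all 25627 shared regions. It called 875 regions up (3.41%) and 503 down at an adjusted p of 0.05. Of the 2614 rising distal regions, 601 (22.99%) were among those called up and none was called down, which describes the members and is no test of them, since the rule used the same contrast. Like the number called over all shared regions, the number of members called depended on the libraries. It was 115 without DMSO replicate 1, 167 without DMSO replicate 2, 747 without I-BET151 replicate 1 and 967 without I-BET151 replicate 2. With ranks by −log10 p only 3 members passed, among 8 shared regions called up. With ranks by pileup 9 members passed, among 11 called up.

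The region with the largest margin lay between genes, 234511 bp from the start of SUDS3, which encodes a subunit of the SIN3 histone deacetylase complex. Its percentiles were 10.2 and 22.6 under DMSO and 99.3 and 94.1 under I-BET151, and its pileup went from 19 and 22 reads to 49 and 76. The next region lay in an intron of HM13, the signal peptide peptidase gene, with the retrogene MCTS2 nearest to it. Its percentiles were 6.57 and 3.45 under DMSO and 83.4 and 77.9 under I-BET151. The rule sets the percentiles of the groups apart in every member, and in these regions the pileups in reads did not overlap either.

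A region in an intron of PEBP4, nearest to the early-response transcription factor gene EGR3, had percentiles of 6.52 and 2.37 under DMSO and 86.7 and 74.8 under I-BET151. A region in an intron of the GABA-B receptor gene GABBR2, nearest to the Rab GTPase-activating protein gene TBC1D2, had percentiles of 7.70 and 14.6, then 85.3 and 82.5. Within an intron of ANKRD6, the region nearest to the mitochondrial protein gene LYRM2 went from 8.71 and 2.61 to 71.6 and 73.6. In each of the 3 regions both DMSO values were in the lowest part of the shared regions.

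The region over exons of the nuclear receptor gene NR2C2 and the mitochondrial ribosomal protein gene MRPS25 started from higher ranks, with percentiles of 33.1 and 18.7 under DMSO and 95.7 and 95.9 under I-BET151. The COL23A1 region, in an intron of this transmembrane collagen gene, had percentiles of 11.8 and 12.1, then 74.5 and 78.4. Within ARHGEF11 an intronic region had 5.33 and 1.53, then 93.2 and 67.6. Its I-BET151 replicates lay further apart than those of the other regions named so far.

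The ITPR1 region, in an intron of the gene for an IP3 receptor calcium channel, is the one whose CTCF match opens the sequences above. Its percentiles were 11.4 and 1.17 under DMSO and 95.8 and 73.5 under I-BET151, with pileups of 18 and 14 reads, then 38 and 39. A region over an exon of the lipase gene ABHD16A, nearest to LY6G5C, had percentiles of 8.67 and 7.22, then 68.8 and 74.6. Here the pileups overlapped, with 31 and 27 reads under DMSO and 28 and 58 under I-BET151, while the local background was 8.32 and 7.97 reads, then 1.86 and 3.75. The last of the regions with the largest margins lay in a long noncoding RNA gene nearest to GPR157, an orphan receptor gene, and had percentiles of 19.7 and 21.7, then 87.1 and 81.2.

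**Figure D2:**
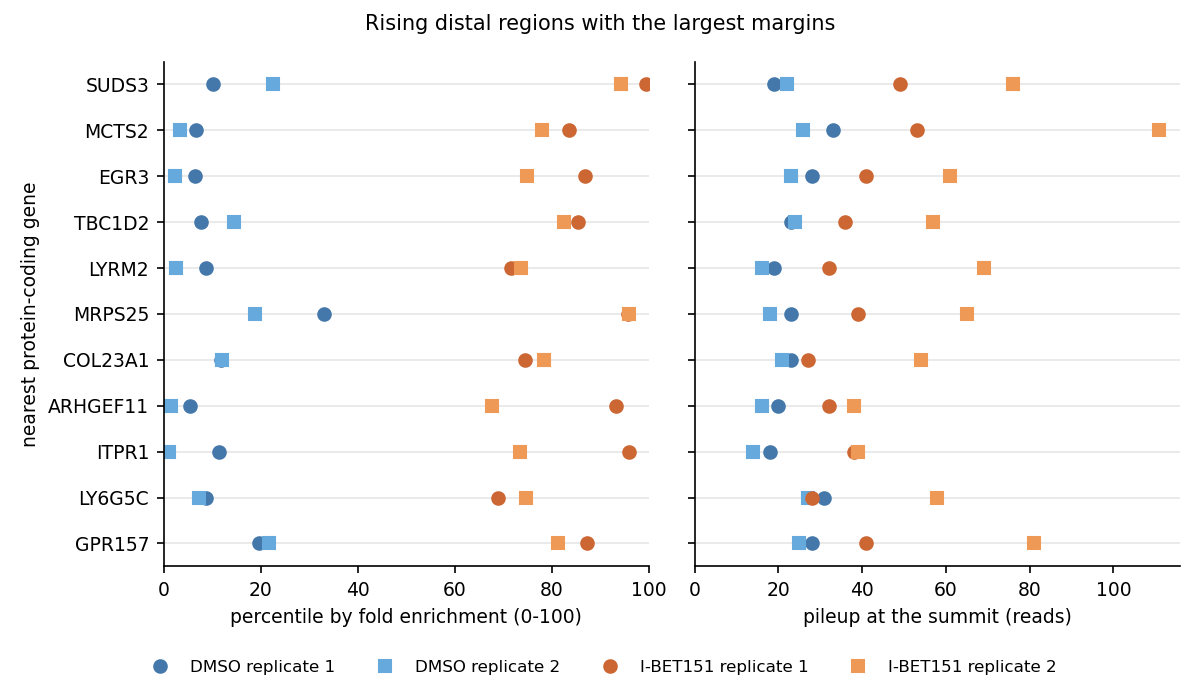
Percentile by fold enrichment (left) and pileup at the summit in reads, not scaled by depth (right), of 11 of the 12 rising distal regions with the largest margins, labelled by the nearest protein-coding gene. Each point is 1 library. By the rule, the I-BET151 percentiles lie to the right of the DMSO percentiles in each region. The pileups overlap for LY6G5C, with 31 and 27 against 28 and 58 reads.

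At the limit of the rule, the members just inside were regions near PGBD2, ENTREP3 and THOC2, with margins of 10.01, 10.01 and 10.0 points. Just outside lay regions near OR10P1 and SRRM4, with margins of 9.99 and 9.988 points. The region near ENTREP3 went from percentiles of 0.743 and 3.48 to 17.3 and 13.5, and that near PGBD2 from 70.8 and 73.2 to 83.3 and 96.5. A member could therefore be weak in all 4 libraries or strong in all 4.

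The rising regions were spread over the same kinds of places as other distal regions. Of these, 42.5% had their summit in an intron and 7.65% in an exon of a protein-coding gene, 14.5% lay in a long noncoding RNA gene and 35.4% between genes. The shares were 45.6%, 7.02%, 14.5% and 32.9% for distal regions that neither rose nor fell. The median distance to the nearest protein-coding gene start was 49760 bp, compared with 55838 bp for the other and 61263 bp for the falling regions. The median width was 696 bp, compared with 727 and 757 bp. The median GC content within 250 bp of the summit was 50.5%, compared with 46.9% for the other and 45.3% for the falling regions. When shared distal regions were split into 3 classes of rising GC content, 11.8%, 14.2% and 22.3% of them were rising regions, while 16.1%, 13.9% and 9.44% were falling ones. By chromosome, the share of rising regions was highest on chr22 (66 of 204, 32.4%) and, among chromosomes with more than 200 regions, lowest on chr18 (52 of 461, 11.3%). GC content moved with the ranking and its part in the result was not tested.

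Matches to 18 motifs were counted within 100 bp of the summit, and the CTCF consensus stood apart. It was present in 172 rising regions (6.58%, 95% Wilson interval 5.69 to 7.60), in 2.68% of other distal regions (2.40 to 2.99) and in 1.72% of falling regions (1.25 to 2.37). These intervals cover counting error only. Of the 518 shared distal regions with a CTCF match, 33.2% rose and 7.14% fell, beside 16.0% rising over all shared distal regions. The difference was present at each GC content. In the GC-poor, middle and GC-rich classes, 3.66%, 6.76% and 8.05% of rising regions had a CTCF match, compared with 1.15%, 3.11% and 3.91% of the other regions. With 1 mismatch allowed the shares were 18.8% of rising, 9.67% of other and 5.92% of falling regions. When members were chosen by ranks of −log10 p in place of fold enrichment, the share with a CTCF match was 4.28%, compared with 3.18% of all shared distal regions. Without I-BET151 replicate 1 it was 4.62%, and without I-BET151 replicate 2 it was 7.77%.

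Motifs of pancreatic and endodermal factors were less frequent in rising regions or differed by less than counting error before GC content was considered. The GATA letters were found in 12.9% of rising, 16.8% of other and 18.3% of falling regions. HNF1 (GTTAATNAT) was found in 1.65%, 2.83% and 3.12%, and HNF4 (CAAAGTCCA) in 0.803%, 1.34% and 1.82%. These factors drive endodermal, hepatic and pancreatic gene programs. FOXA was found in 5.28%, 6.20% and 6.85%, HNF6 in 6.24%, 6.65% and 6.94%, NKX6.1 (TTAATNG) in 5.01%, 5.83% and 7.78%, and SOX (ACAATNG) in 6.58%, 6.84% and 7.36%. For PDX1, the master regulator of pancreas formation, the shares of 1.95%, 2.28% and 1.86% lay within counting error of each other. Within each GC class the intervals of rising and other regions overlapped for these 8 motifs. HNF6 was found in 13.0%, 7.29% and 1.91% of rising regions in the GC-poor, middle and GC-rich classes, compared with 11.95%, 5.85% and 1.71% of other regions.

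AP-1, the FOS and JUN complex that responds to growth factors and stress, was found in 11.4% of rising regions and in 16.3% of other and 16.0% of falling regions. In the GC-poor class the AP-1 share was 13.0% of rising (10.6 to 15.8) and 19.3% of other regions (18.1 to 20.5), and in the GC-rich class 9.30% and 10.4%, with overlapping intervals. RBPJ (TGGGAA), the DNA-binding partner of Notch, was found in 20.4% of rising, 20.5% of other and 17.3% of falling regions. TEAD (GGAATG), the partner of YAP, was found in 16.5%, 16.8% and 17.4%. ETS (CCGGAAG) was found in 3.18%, 2.38% and 1.35%, and in the GC-rich class in 5.81% of rising and 5.86% of other regions. The E-box was found in 15.9%, 14.4% and 14.2%. NF-Y (CCAAT) was found in 23.4%, 24.9% and 26.2%, while NF-I, NRF1 (GCGCATGCG) and YY1 (AAGATGGCG) were found in under 1.1% of each class. None of the 18 motifs was found in 600 rising regions (22.95%).

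**Figure D3:**
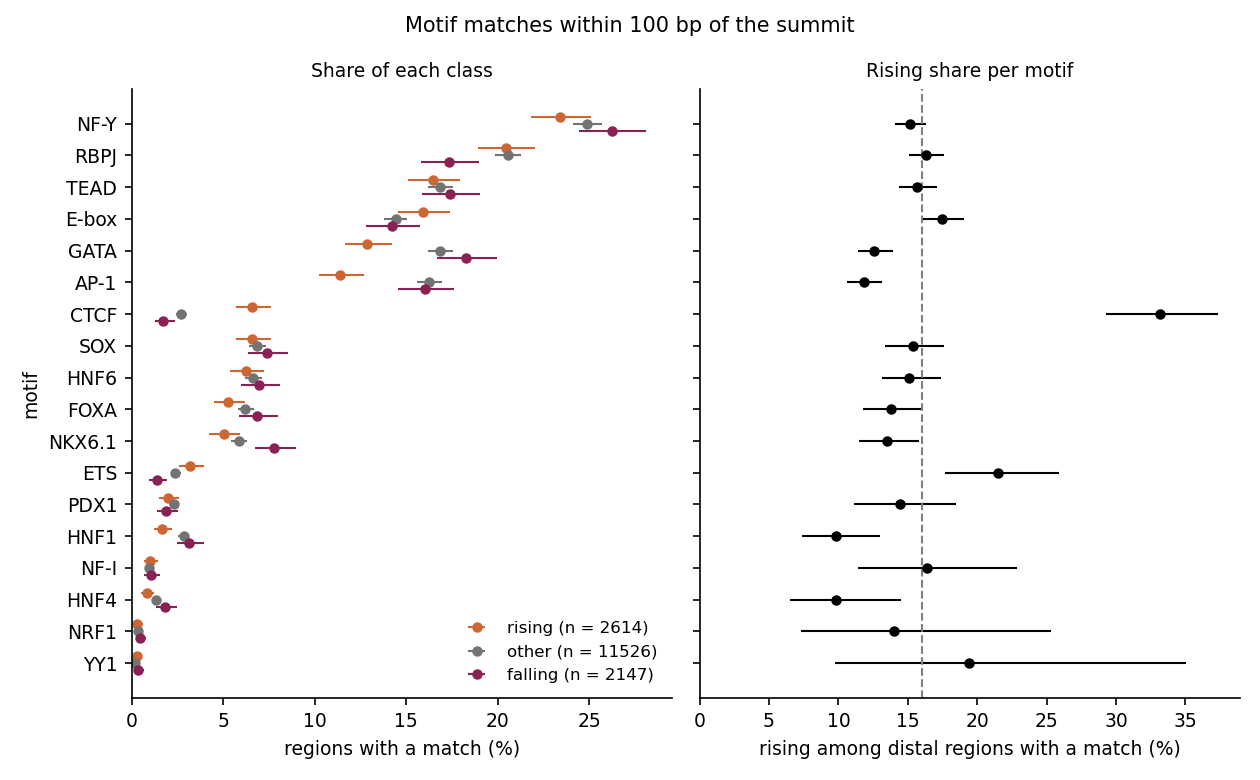
Share of rising, other and falling shared distal regions with a motif match within 100 bp of the summit (left, %), and share of rising regions among shared distal regions with each motif (right, %), with 95% Wilson intervals. The dashed line marks the 16.0% of all shared distal regions that rose. CTCF stands apart with 6.58% of rising regions and a rising share of 33.2%, and the intervals of GATA, AP-1, HNF1, HNF4 and NKX6.1 lie wholly to the left of the line.

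The 172 rising regions with a CTCF match resembled the other members in rank and were narrower. Their median percentiles were 21.2 and 23.5 under DMSO and 66.6 and 63.3 under I-BET151, and their median width was 616 bp, compared with 705 bp for the 2442 members without a match. The median distance from summit to match was 47 bp, compared with 37 bp in other distal regions with a match. Their median pileups were 22 and 20 reads under DMSO and 24 and 39 under I-BET151, compared with 23, 22, 28 and 53 in the members without a match. In the PAXIP1 region the percentiles were 0.224 and 0.302 under DMSO and 56.5 and 62.3 under I-BET151. The region near SERPINB12 had 4.13 and 6.63, then 64.4 and 76.0, and the PRKAG2 region had 1.56 and 0.482, then 69.0 and 57.0. PRKAG2 encodes a regulatory subunit of the AMP-activated protein kinase and PAXIP1 a protein of the MLL3/MLL4 histone methyltransferase complexes. All 3 sites ranked near the bottom of the shared regions under DMSO and in their upper part under I-BET151.

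The same percentiles were also summarised over all 518 shared distal regions with a CTCF match, of which 172 were members. CTCF was singled out for its share among the members, so these values are a description without a test. Their median percentile was 34.8 and 33.3 in the DMSO libraries and 52.3 and 46.0 in the I-BET151 libraries. The mean of the library medians was 34.0 ± 1.07 (SD, n = 2) under DMSO and 49.2 ± 4.47 (SD, n = 2) under I-BET151, a difference of 15.2 points. For the other 17 motifs the groups of libraries overlapped, with differences from -11.2 to 6.31 points. The order for CTCF depended on the measure ranked. By −log10 p the medians were 29.6 and 29.5, then 43.2 and 28.2, and by pileup they were 29.4 and 29.3, then 35.7 and 21.5, so both I-BET151 libraries did not lie above both DMSO libraries by either measure.

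**Figure D4:**
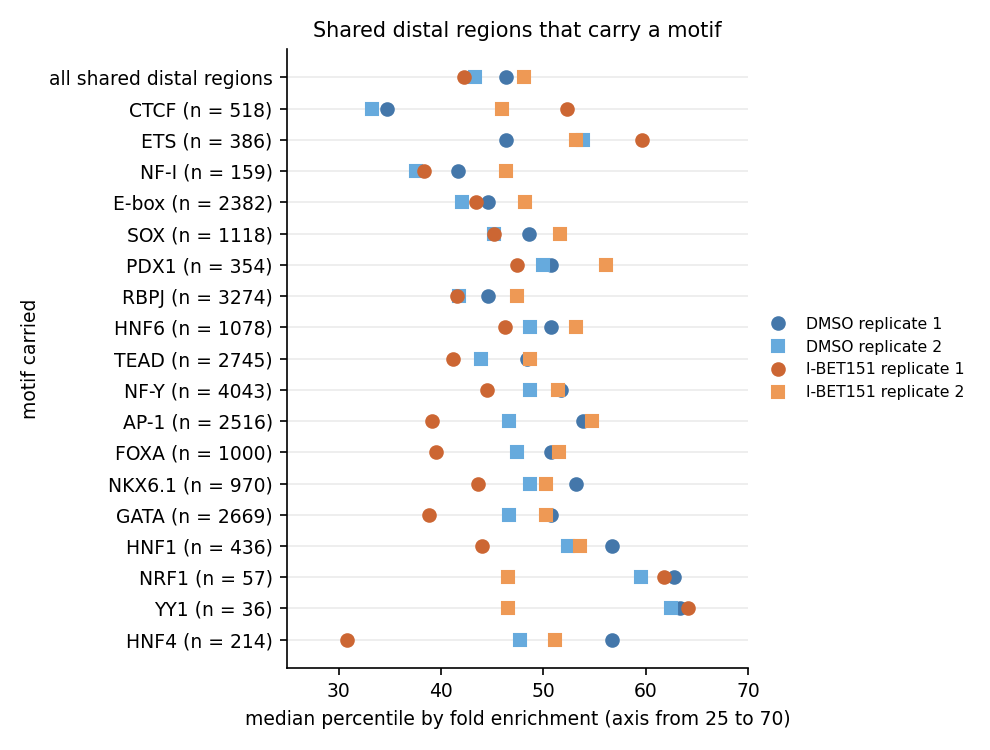
Median percentile by fold enrichment of all shared distal regions that carry each motif, per library, with the number of regions in parentheses and all shared distal regions at the top. For CTCF both I-BET151 medians (52.3 and 46.0) lie above both DMSO medians (34.8 and 33.3), and for the other 17 motifs the groups overlap.

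Because the rule used all 4 libraries, the change was also read in a pair of libraries that had not chosen the regions. The 5271 shared distal regions that gained at least 10 points from DMSO replicate 1 to I-BET151 replicate 1 changed by a median of 16.0 points between the replicate 2 libraries, and 78.0% of them went up. Over all 16287 shared distal regions the median change in that pair was 3.08 points and 56.3% went up. In the reverse direction, the 6188 regions chosen in the replicate 2 pair changed by a median of 11.4 points in the replicate 1 pair, where 64.1% went up, compared with -2.08 points and 46.5% over all. Pairing the libraries across replicate numbers gave medians of 15.4 and 16.7 points. A pair of single libraries holds no replicate, so no test was made and these values are a description. The regions chosen in a pair are not the 2614 members. All of them had to be called in the pair that was read, and depth moved with treatment in every pair. The change was smaller with ranks by −log10 p (9.06 points) or pileup (8.68 points), for regions chosen in the replicate 1 pair.

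The rising regions were nearest to 2204 protein-coding genes, out of 7549 genes nearest to any shared distal region. The genes with the most were TNS3, ZNF608 and PMFBP1, with 5 rising regions each out of 21, 15 and 14 distal regions. TNS3 encodes a focal adhesion protein, and its 5 regions had margins of 15.7 to 46.9 points. The leading TNS3 region, in an intron of the gene, had percentiles of 22.1 and 18.9 under DMSO and 69.0 and 73.4 under I-BET151. ZNF608 encodes a zinc finger protein, and the margins of its regions were 21.7 to 28.0 points. Of the regions assigned to PMFBP1, 4 lay inside ZFHX3, a homeobox gene whose annotated start is further away. A further 12 genes had 4 rising regions each, among them SOX9, ARRDC4 and LY86, which had the most distal regions of the 12 (13, 12 and 11).

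Among the transcription factors that define pancreatic progenitors, 15 of 135 distal regions rose (11.1%) and 24 fell (17.8%), beside 16.0% rising over all shared distal regions. The 15 regions lay nearest to GATA6, HHEX, HNF4G, NKX6-1, NR5A2, PROX1, SOX9 and TCF7L2. Limma called 3 of them, none of which was nearest to SOX9 or NKX6-1. SOX9 keeps progenitors in a multipotent state, and 4 of its 13 distal regions rose. The leading SOX9 region, shown above, had percentiles of 47.8 and 40.2 under DMSO and 88.6 and 82.4 under I-BET151, with pileups of 41 and 36, then 44 and 88 reads. The other SOX9 regions lay in long noncoding RNA genes 90019, 217862 and 397809 bp from its start, with margins of 13.0, 29.4 and 10.2 points. A region 229036 bp from NKX6-1, the homeobox gene that marks progenitors able to form β cells, had percentiles of 31.3 and 34.8, then 82.5 and 75.2. A region 236918 bp from TCF7L2, a Wnt effector, had 18.6 and 12.4, then 83.0 and 59.0. For HNF4G, a nuclear receptor, the leading region had 50.8 and 54.8, then 89.3 and 96.5. No rising region was nearest to PDX1.

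Genes of the Notch pathway, which holds progenitors back from endocrine differentiation, had 4 rising (10.0%) and 5 falling regions (12.5%) out of 40, compared with 16.0% and 13.2% of all shared distal regions. The rising ones were nearest to NUMBL, RBPJ, HES1 and MAML3, and limma called only the one near NUMBL. The region near NUMBL, an adaptor that antagonizes Notch, had percentiles of 7.80 and 16.4 under DMSO and 63.3 and 65.8 under I-BET151. An intronic region of RBPJ itself had 29.3 and 28.8, then 51.7 and 59.9. The region 22922 bp from HES1, the Notch target that represses NEUROG3, had 46.3 and 57.0, then 82.9 and 76.1. In an intron of MAML3, a Notch coactivator gene, the values were 40.6 and 78.6, then 91.1 and 90.6, and the DMSO replicates lay far apart.

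Around genes of the endocrine lineage 8 of 28 distal regions rose (28.6%) and 1 fell. These counts are small and the members were chosen with results known, so they are read beside the 16.0% of all shared distal regions only as a description. The rising ones were nearest to INSM1, ISL1, MAFA, NEUROD1, RFX3 and ST18. Near INSM1, a zinc finger gene of endocrine precursors, the leading region had percentiles of 1.06 and 16.6 under DMSO and 67.6 and 58.8 under I-BET151. Near ISL1, a LIM homeobox gene of islet cells, the values were 38.0 and 54.8, then 92.1 and 92.6. Near NEUROD1, which acts downstream of NEUROG3, they were 24.5 and 12.9, then 66.8 and 57.5, and in an intron of ST18 they were 53.2 and 51.4, then 91.5 and 89.9. The start of at most 2 of the 5 endocrine marker genes was called in any library.

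Genes of other gut lineages had 6 rising regions and 1 falling out of 16 (37.5% rising, compared with 16.0% of all shared distal regions), and limma called 2 of the 6. These counts too are small and are a description only. The region 139067 bp from SOX2, a foregut and stomach gene, had percentiles of 21.1 and 9.22 under DMSO and 71.7 and 82.1 under I-BET151. A region 4228 bp from CDX1, an intestinal homeobox gene, was among the lowest of the shared regions under DMSO with 0.0117 and 1.10 and had 36.3 and 17.3 under I-BET151. That CDX1 region carries a CTCF match. The HHEX region, which is also counted among the progenitor factors above, had 22.4 and 16.6, then 48.2 and 36.1.

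Target genes of AP-1 and TGF-β had 5 rising (10.0%) and 9 falling regions (18.0%) out of 50, compared with 16.0% and 13.2% of all shared distal regions. A region in an intron of TGFB2, a TGF-β ligand gene, had percentiles of 20.8 and 16.9 under DMSO and 75.2 and 68.5 under I-BET151. Near CCN1, a matricellular protein gene, the values were 18.3 and 18.2, then 73.1 and 52.6, and near CCN2 they were 55.7 and 45.4, then 79.1 and 88.5. Mesenchymal transition genes had 2 rising (6.90%) and 2 falling regions out of 29, less than the overall 16.0% and 13.2%, with the rising ones in an intron of TWIST2 (7.03 and 15.4, then 56.4 and 91.3) and near ZEB1 (72.6 and 71.0, then 86.1 and 87.5). Genes of CTCF and cohesin insulation had 1 rising (12.5%) and 2 falling regions out of 8, again beside 16.0% and 13.2% overall. The rising one lay near the cohesin release factor gene WAPL, with 17.4 and 29.1, then 71.4 and 81.8.

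Rising regions lay near one another and near lost regions somewhat more often than other distal regions did. Another rising region lay within 50 kb of 16.1% of them, compared with 12.8% of other and 11.6% of falling regions. A falling region lay within 50 kb of 9.26% of them, compared with 12.9% and 20.4%. Regions gained, meaning present in both I-BET151 lists but in no DMSO list, numbered 27885, and at least 1 lay within 50 kb of 70.5% of rising, 69.6% of other and 70.4% of falling regions. Regions lost, present in both DMSO lists but in no I-BET151 list, numbered 3896, and at least 1 lay within 50 kb of 20.01% of rising, 15.4% of other and 13.3% of falling regions. Neighbouring regions share chromatin domains and are not independent, so no test was made.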

How the data were processed

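ATAC-seq peak lists of 4 libraries were used. Per the submitters' processing notes and the study's methods, the authors aligned reads to hg38 with Bowtie2 2.2.5, removed duplicate and mitochondrial reads and called peaks for each library with MACS2 2.1.2. The deposited lists give for each peak a fold enrichment (a ratio to local background), −log10 p and −log10 q values, and a display score that was not used. The methods state a p threshold, whereas the lowest −log10 q in the lists was 1.30, a cutoff on q. No read counts were used here, so depth was inferred from the genome-wide background under the default genome size of MACS2. Intervals cover counting error only.

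Peaks on the assembled chromosomes were merged where they overlapped by 1 bp. Percentiles were ranks of fold enrichment among the 25627 regions called in all lists. The pileup and local background were solved from fold enrichment and −log10 p, which succeeded for 100% of peaks. Gene starts (20033 protein-coding records) and places came from GENCODE 44, and sequence from hg38. Each region was assigned to the nearest gene start, which need not be the gene it acts on. Normal scores of the ranks were tested with limma 3.58.1 in R 4.3.3 with Benjamini-Hochberg adjustment over all shared regions. Scripts were tested on simulated data. CTCF and NF-I were searched with a degenerate consensus. Motifs can overlap one another, such as those of RBPJ and TEAD.

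The members, gene lists and motifs were chosen with earlier results of these data known. The text names the 12 regions with the largest margins, the 3 on each side of the limit, leading regions per motif, the 6 genes nearest to the most rising regions (3 with 5 regions, and 3 of 12 tied at 4, taken by their number of distal regions), and up to 4 regions per gene list. Some regions that this rule takes in are not reported here. Alternatives covered the column ranked, peak and overlap thresholds, the margin, the distance, motif windows, GC content, a replicate block (3207 rising regions when each pair was required to rise) and leaving out each library. The limit of 5 on −log10 p, distance from transcript starts, 1 mismatch in CTCF and 2 uses of pileup ranks were added after seeing the data.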

Additional observations from a re-analysis of the deposited data

How the results depend on the processing

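The number of rising distal regions (2614) was 1203 with peaks of −log10 p of at least 10, 1241 with an overlap of at least 50%, 1361 with a margin of 20 points and 4065 to 5377 when a library was left out. It stayed within 1.5 times under the other rules, with 1845 by −log10 p (57.9% of members kept) and 1832 by pileup (38.0% kept). Of all shared regions, limma called 875 up and 503 down, but 8 and 27 with ranks by −log10 p and 11 and 42 with ranks by pileup, where 3 and 9 members were called. Leaving out a library gave 192 to 1799 up, 145 to 1734 down and 115 to 967 members. With a replicate block it gave 985 up, 652 down and 662 members, and no result changed direction or moved by over 1.5 times. Over the shared regions, the difference between replicates 1 and 2 under DMSO correlated at -0.143 with that under I-BET151. This correlation cannot decide whether replicate number is a batch, since the shortest peak also differed between the replicate 1 and replicate 2 lists. The CTCF share (6.58%) was 3.18% within 50 bp and 8.80% within 250 bp, 4.28% by −log10 p, 18.8% with 1 mismatch, 3.66% and 8.05% in the GC-poor and GC-rich classes, and 4.62% to 7.77% without a library. The median width was 729 bp by −log10 p and 568 to 676 bp without a library, and the median distance was 61910 bp by −log10 p. The change in the pair that did not choose the regions was 9.06 points by −log10 p and 8.68 by pileup. For all regions with a CTCF match the difference reversed to -0.795 points by pileup. The cause of these changes was not tested. I-BET151 libraries of 12.5 and 16.0 M reads against 38.7 and 36.6 M limit the comparison of weak regions.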
